A study of Citrus trifoliata with 2 samples.

Results

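Histidine-containing phosphotransfer proteins (AHPs) were examined in RNA sequencing of buds of Citrus trifoliata, the trifoliate orange, which is hardy and grown mainly as a rootstock for other citrus. The members were all unigenes, that is, assembled transcript models, whose best Swiss-Prot hit carried the name Histidine-containing phosphotransfer protein. The name matched 8 of 35775 unigenes, and 7 of these passed a minimum of 1 RPKM in at least 1 library. RPKM is a read count divided by unigene length and by library total, so that it can be compared between unigenes. The family was chosen by the measured mutant-to-wild-type ratio of Unigene27895 (Unigene27895_All in the deposited table, with the ending dropped here for all unigenes), so the values below describe that difference and do not test it.

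The mutant library came from precocious trifoliate orange, a mutant that flowers early, and the wild-type library from normal trifoliate orange. Both were made from poly(A) RNA of the terminal bud and the 5 buds below it on spring flushes of untreated 2-year-old trees, taken at flower initiation after self-pruning, the natural shedding of the shoot tip. Each genotype had 1 library and the labels do not say how many trees were pooled, so no test across trees was possible. In units of 1000 reads, the total on unigenes was 10037 for the mutant and 9995 for the wild type. Intervals are at the 95% level, exact, and cover the error of counting alone. In whole buds a higher level per cell cannot be told apart from a larger number of expressing cells.

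Cytokinin, the plant hormone that sustains cell division in the shoot meristem, signals through a relay of phosphate groups. Receptor histidine kinases pass the phosphate to AHPs, which move between cytosol and nucleus and hand it to response regulators. Type-B response regulators are transcription factors that switch on cytokinin-responsive genes, among them the type-A regulators that damp the signal. In Arabidopsis, AHP1 and AHP5 belong to a set of redundant positive relays, whereas AHP4 has a minor and partly opposite role and has been linked to wall thickening in the anther.

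The best hits of the members fell on 4 Swiss-Prot entries. Arabidopsis AHP1 was the best hit of 4 unigenes (Unigene16031, Unigene3150, Unigene24903 and Unigene33241). Arabidopsis AHP4 was the best hit of 2 (Unigene27895 and Unigene6766), Arabidopsis AHP5 of Unigene8050, and rice HP1 of Unigene23208. Unigenes that share an entry can be pieces or alleles of 1 gene, or separate genes. The members were 420 to 895 bases long. The closest matches were Unigene24903 (E-value 4e-60) and Unigene8050 (3e-53). Unigene27895 matched AHP4 at only 1e-14, which was weaker than the AHP4 match of the shorter Unigene6766 (1e-36). Its name therefore rests on a weak match, and no other annotation column describes it. The names of Unigene23208 (2e-13) and Unigene3150 (4e-15) rest on similarly weak matches.

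Unigene27895 had 637 mutant reads against 2 wild-type reads, or 81.2 RPKM (interval 75.0 to 87.7) against 0.256 RPKM (0.0310 to 0.924). The fold from reads and library totals was 317 (87.4 to 2625). On the log2(RPKM + 1) scale, which lowers the ratio where a level is near 0, the ratio was 6.03, the highest of the 34255 unigenes kept. A pseudocount of 1 RPKM brings the fold to 65.4, and one of 5 RPKM to 16.4. With only 2 wild-type reads the size of the fold is poorly fixed, whereas the intervals of the levels lie far apart.

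The second AHP4 match showed no such gap. Unigene6766 had 45 mutant reads against 42 wild-type reads, or 9.02 against 8.45 RPKM, a fold of 1.07 (0.685 to 1.67). Summed over both AHP4 matches there were 682 mutant reads against 44 wild-type reads, and 42 of those 44 came from Unigene6766.

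**Figure D1:**
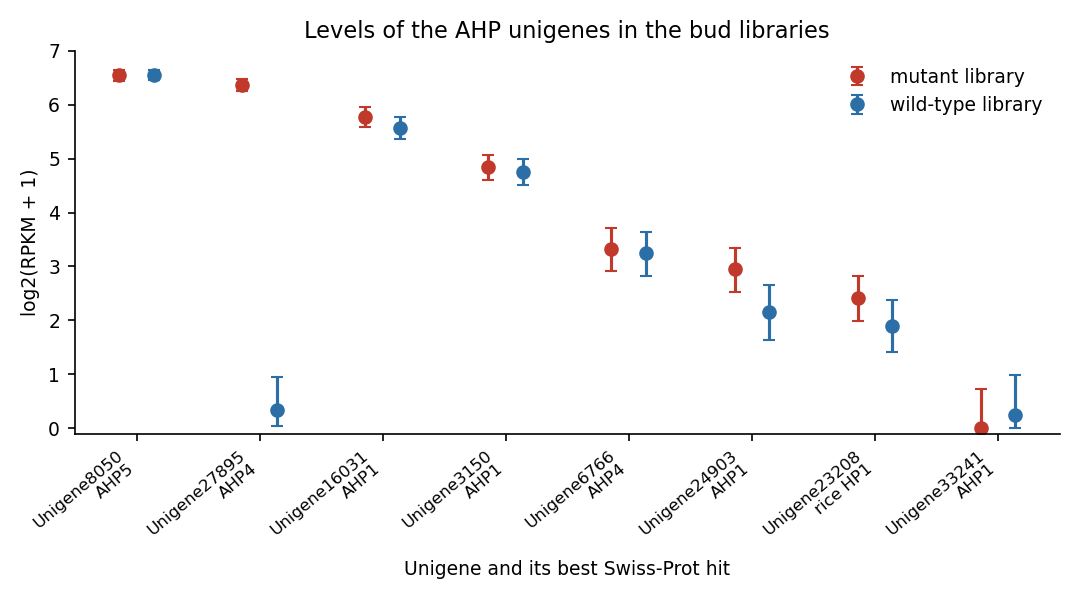
Level of each AHP unigene as log2(RPKM + 1) in the mutant library (left point of each pair) and the wild-type library (right point), with exact 95% counting intervals as bars. Unigene27895 lies at 81.2 RPKM (mutant) and 0.256 RPKM (wild type), while the points of every other pair lie less than 1 log2 unit apart.

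The most abundant member, the AHP5 match Unigene8050, had 830 reads in each library. Its level was 92.4 RPKM in the mutant library and 92.8 RPKM in the wild-type library, a fold of 0.996 (0.903 to 1.10). Any difference in this AHP5 match was too small to be told from counting error.

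Among the AHP1 matches, Unigene16031 had 227 mutant reads against 195 wild-type reads (53.8 against 46.5 RPKM), a fold of 1.16 (0.953 to 1.41). Unigene3150 had 149 against 140 reads (27.5 against 26.0 RPKM), a fold of 1.06 (0.836 to 1.34). Both intervals included 1. Unigene24903, the closest match to AHP1, had 39 against 20 reads (6.70 against 3.45 RPKM), and its fold of 1.94 (1.11 to 3.51) had an interval above 1 but stayed under 2-fold. Unigene33241 had 0 mutant reads and 1 wild-type read, under the limit of 3 reads that a count of 0 allows, so no fold is given. Together the 4 AHP1 matches had 415 mutant reads against 356 wild-type reads, a fold of 1.16 (1.01 to 1.34).

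The rice HP1 match, Unigene23208, had 32 mutant reads against 20 wild-type reads (4.30 against 2.70 RPKM). Its fold of 1.59 (0.884 to 2.94) had an interval that included 1.

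The order of the members by level was the same in both libraries except for Unigene27895. In the mutant library it ranked second of 8 by RPKM, below Unigene8050 by a ratio of 1.14 (1.03 to 1.26) and above Unigene16031 by 1.51 (1.29 to 1.76). In the wild-type library it ranked seventh, 10.6-fold below Unigene23208 (2.56 to 93.1). In the mutant library Unigene6766, Unigene24903 and Unigene23208 did not differ beyond counting error from their neighbours within this trio. In the wild-type library this held for Unigene24903 with Unigene23208, and for Unigene27895 with Unigene33241.

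Unigene27895 supplied 32.5% of all AHP reads in the mutant library (30.4 to 34.6) and 0.160% in the wild-type library (0.0194 to 0.577). Unigene8050 supplied 42.4% in the mutant library (40.2 to 44.6) and 66.4% in the wild-type library (63.7 to 69.0). All members together had 1959 mutant reads against 1250 wild-type reads, a fold of 1.56 (1.45 to 1.68). Without Unigene27895 the sums were 1322 against 1248 reads, a fold of 1.05 (0.976 to 1.14). The higher AHP total of the mutant library was therefore carried by this 1 unigene.

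By the 2-fold rule on the log2(RPKM + 1) scale, 1 of the 7 kept members was higher in the mutant library, and of all kept unigenes 8.61% were. No kept member (0 of 7) was 2-fold lower, against 5.31% of all kept unigenes. Past 4-fold, 1 of the 7 was higher and 0 were lower, against 0.727% and 0.403% of all kept unigenes. By counting interval, 2 of the 7 lay above 1 and 0 below it, against 19.8% and 14.4% of all kept unigenes. The member past 2-fold and 4-fold was Unigene27895, whose ratio chose the family, and it was also 1 of these 2. Of the 6 other kept members, 0 were past 2-fold in either direction and 1 had an interval above 1. The median log2 ratio of the kept members was 0.21, or 0.15 without Unigene27895, beside 0.05 over all kept unigenes.

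**Figure D2:**
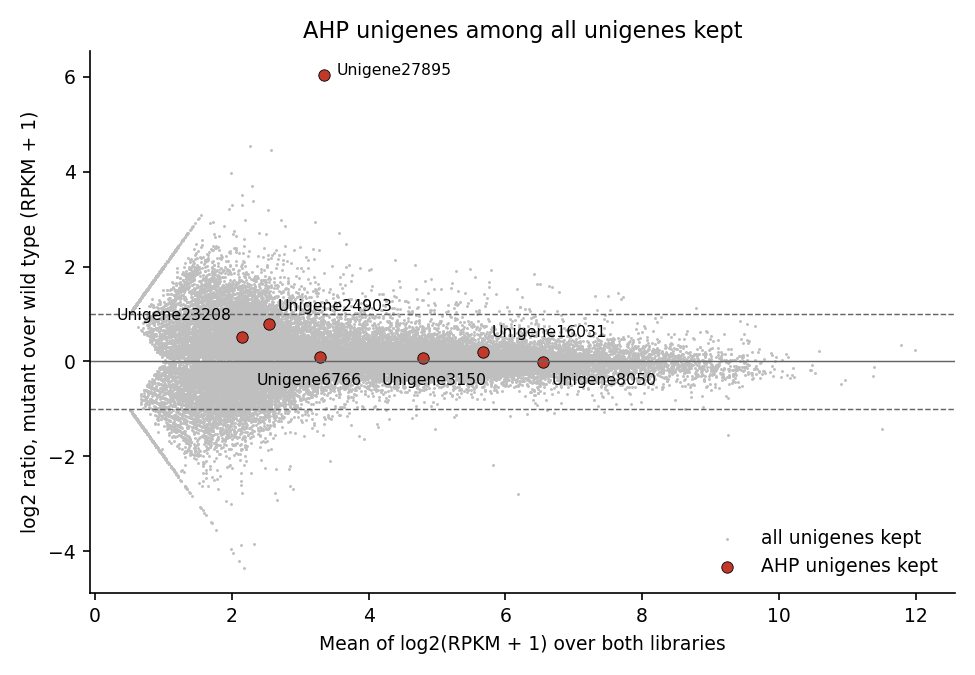
Log2 ratio of mutant over wild type against mean level for the 34255 unigenes kept (grey) and the 7 kept AHP unigenes (red), with dashed lines at 2-fold. Unigene27895 stands above all others at 6.03, and the other AHP unigenes lie between the dashed lines.

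Ratios of all unigenes shifted along the unigene numbering, and the members were set beside their neighbours. For each member the 200 unigenes with the nearest numbers, 100 on each side, were taken. Median ratios and shares of neighbours, here and below, are over the kept unigenes among them, 185 to 200 per member. Around Unigene3150, Unigene6766, Unigene8050 and Unigene16031 the median log2 ratio of the neighbours was 0.0064 to 0.098, and 0.500% to 2.50% of them were 2-fold higher in the mutant library. Around Unigene23208 and Unigene24903 the medians were 0.58 and 0.57, next to these members' own ratios of 0.52 and 0.79. Around Unigene33241 the median was −0.57, and 26.8% of the neighbours were 2-fold lower.

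For the 190 kept neighbours of Unigene27895 the median ratio was 0.70, and 26.8% were 2-fold higher. Over all 200 neighbours the median count was 42 mutant reads against 21 wild-type reads. The highest ratio among the kept neighbours was 3.50, beside 6.03 for Unigene27895, which was chosen for that ratio. The part of the numbering in the ratios of Unigene27895, Unigene24903 and Unigene23208 was not tested.

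**Figure D3:**
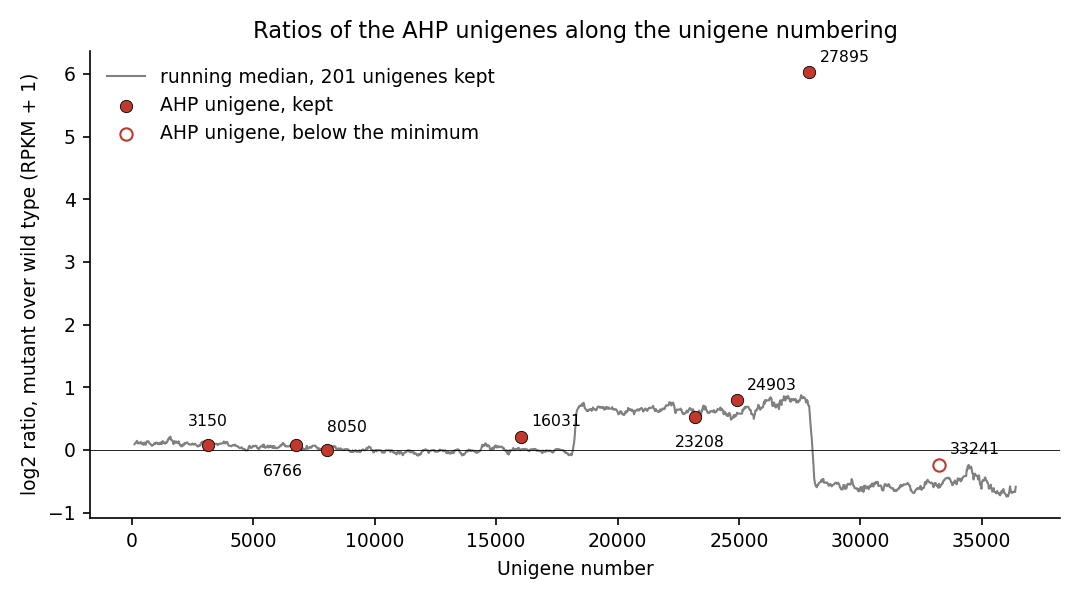
Log2 ratio of mutant over wild type for the 8 AHP unigenes against unigene number, with the running median of all kept unigenes in grey. The running median steps up and then down along the numbering, and Unigene23208 and Unigene24903 lie near it while Unigene27895 lies far above it.

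Other parts of the relay, and genes related to it, were read from lists of Swiss-Prot names. No unigene had a best hit named as a plant cytokinin receptor (0 listed). The list of response regulators held 24 unigenes, of which 23 were kept, and 1 was past 2-fold in each direction, against 8.61% higher and 5.31% lower of all kept unigenes. Its median log2 ratio was 0.01, and turned to −0.03 after centring on the median of all unigenes.

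Type-A regulators, the damping arm that cytokinin itself induces, were matched by 8 unigenes. This grouping, like that of type B, was made after the values had been seen. Their median log2 ratio was 0.11, and they had 4757 mutant reads against 4516 wild-type reads in sum. Counting intervals lay above 1 for 3 of the 8 and below 1 for 0, against 19.8% and 14.4% of all kept unigenes. The most abundant of them, the ARR4 match Unigene5516, had 1045 against 1118 reads. Unigene20242, an ARR9 match, was the 1 member past 2-fold, with 10 reads against 1 (9.96-fold, 1.42 to 432), and the neighbours of its number had a median of 0.57, with 24.6% of them 2-fold higher. The longer ARR9 matches gave 764 against 600 reads for Unigene12446 (1.27-fold, 1.14 to 1.41) and 533 against 526 for Unigene7757 (1.01-fold, 0.893 to 1.14).

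Type-B regulators, the transcription factors that receive phosphate from AHPs, were matched by 16 unigenes, 15 of them kept. Their median log2 ratio was −0.17, with 7826 mutant reads against 8769 wild-type reads. Counting intervals lay above 1 for 6 of the 15 and below 1 for 8, against 19.8% and 14.4% of all kept unigenes. Among the higher ones were the ARR18 matches Unigene15037 (134 against 69 reads, 1.93-fold, 1.44 to 2.62) and Unigene7415 (672 against 520, 1.29-fold, 1.15 to 1.45). Their E-values of 1e-12 and 7e-12 were weaker than the 1e-14 of Unigene27895, so their names also rest on weak matches. The ARR12 match Unigene13192 (1e-132) was higher too, with 907 against 790 reads (1.14-fold, 1.04 to 1.26). So were the ARR1 matches Unigene20662 (54 against 30) and Unigene33372 (28 against 13). The ARR11 match Unigene9080 was among the lower ones, with 1223 against 1522 reads (0.800-fold, 0.742 to 0.863). The ARR1 matches Unigene5780 (1513 against 1818) and Unigene2652 (630 against 808) were lower too. So were the ARR2 matches Unigene14797 (854 against 940), Unigene6313 (360 against 470) and Unigene7900 (571 against 691). The ARR12 match Unigene28086 was the 1 regulator past 2-fold in this direction, with 14 against 37 reads (2.65-fold lower, 1.40 to 5.31), and the neighbours of its number had a median of −0.38.

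Cytokinin dehydrogenases, which degrade the hormone, were matched by 6 unigenes, and 1 was 2-fold higher and 1 lower, against 8.61% and 5.31% of all kept unigenes. The CKX7 match Unigene9840 had 1354 mutant reads against 591 wild-type reads (77.2 against 33.8 RPKM), a fold of 2.28 (2.07 to 2.52). The median ratio of its neighbours by number was 0.0024, with 0.500% of them 2-fold higher. The CKX5 match Unigene36366 had 8 against 29 reads (3.64-fold lower, 1.62 to 9.22), where the neighbours had a median of −0.66.

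Clock pseudo-response regulators, which share the receiver fold but belong to the circadian clock, had a median of −0.15 over 15 unigenes. Of these, 0 were past 2-fold in either direction, against 8.61% higher and 5.31% lower of all kept unigenes. Counting intervals lay above 1 for 3 of the 15 and below 1 for 5, against 19.8% and 14.4%. Unigene14034, a PRR37 match, had 151 mutant reads against 98, and Unigene16227, an APRR3 match, had 18 against 32. Cytokinin response factors, a branch of the ERF family induced by cytokinin, had 0 of 5 past 2-fold, against the same 8.61% and 5.31%. Their low counts included 4 against 2 reads for the CRF3 match Unigene21711 and 6 against 14 for the CRF4 match Unigene35694. The single synthesis unigene, a tRNA isopentenyltransferase match (Unigene7209), had 66 against 53 reads (1.24-fold, 0.851 to 1.82).

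Ethylene receptors, which derive from the same histidine kinase family, were matched by 4 unigenes named ethylene receptor. Of these, 1 was 2-fold higher and 0 were lower, against 8.61% and 5.31% of all kept unigenes. The related EIN4 and ERS1 matches carry other names and are not among the 4. The ETR2 match Unigene19734 had 37 mutant reads against 11 wild-type reads (3.35-fold, 1.67 to 7.28), where the neighbours had a median of 0.65. Another ETR2 match, Unigene10832, leaned the other way with 31 against 56 reads (1.81-fold lower, 1.15 to 2.91). Over all 54 kept unigenes of these lists, 3 were 2-fold higher and 2 were 2-fold lower, against 8.61% and 5.31% of all kept unigenes, with a median of −0.03.

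**Figure D4:**
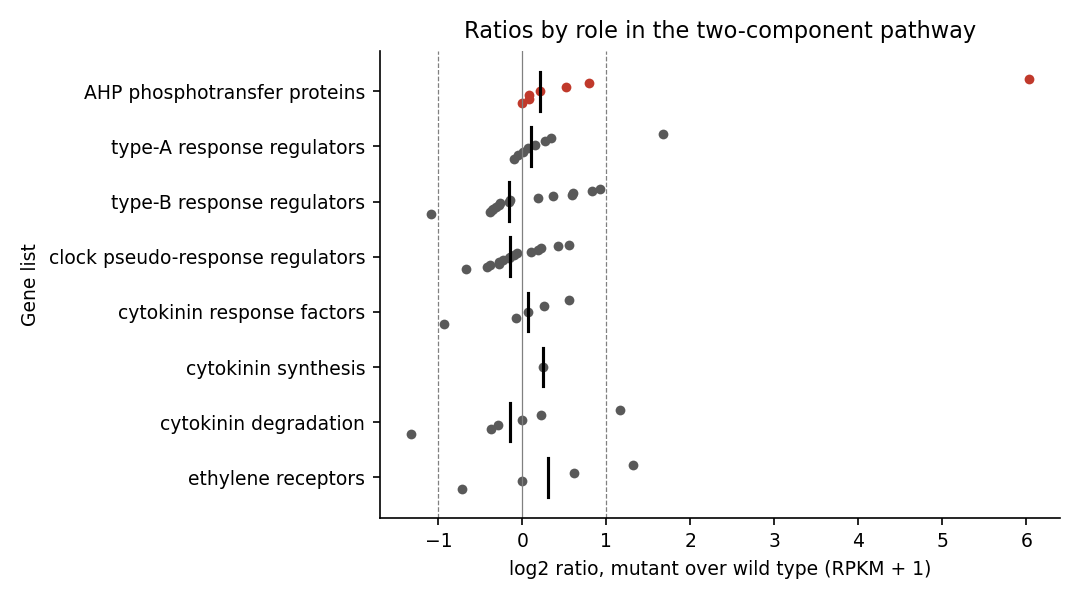
Log2 ratio of mutant over wild type for each kept unigene by gene list, with the list median as a black bar and dashed lines at 2-fold. Unigene27895, the AHP point at 6.03, lies apart from every other unigene of these lists, the next being the ARR9 match at 1.67.

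Among kept unigenes with a Swiss-Prot hit, the 5 whose log2 ratio was nearest to that of Unigene27895 all stood at least 2.06 log2 units below it, a likeness that rests on 2 libraries. Without a Swiss-Prot hit, Unigene25762 (50 reads against 0, log2 ratio 4.53) and Unigene23558 (101 against 1, log2 ratio 4.46) stood nearer. Unigene23803, with a weak human hit (KBTB3, E-value 9e-06), had 154 mutant reads against 0, which set against 3 reads is at least 51.1-fold higher, with an exact lower limit of 41.1 that also counts the error of the mutant reads. Unigene27836, a small-chain match of ribonucleotide reductase, which makes DNA precursors, had 89 against 2 reads (44.3-fold, 11.9 to 372). Unigene27929, matching extensin, a wall glycoprotein, had 143 against 5 reads (28.5-fold, 11.9 to 89.1). Unigene23535, a myrcene synthase match, and Unigene24209, a histone H3.2 match, completed the 5 with 208 against 11 and 189 against 18 reads. All 5 carry numbers in the stretch where neighbours were higher in the mutant library, with neighbour medians of 0.53 to 0.76.

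Marker lists were read to check the tissue label. The shoot apex list had 33 unigenes, with a summed level of 432 RPKM in the mutant library and 440 RPKM in the wild-type library. Its 30 kept unigenes had a median log2 ratio of 0.11 and a range of −1.06 to 2.58. Of these, 2 were 2-fold higher and 3 lower, against 8.61% and 5.31% of all kept unigenes. Counting intervals lay above 1 for 9 of the 30 and below 1 for 4, against 19.8% and 14.4%. SHOOT MERISTEMLESS, the homeobox gene of the shoot meristem, had 136 mutant reads against 163 in its main match (Unigene27959). That fold of 0.831 (0.657 to 1.05) had an interval that included 1. No hit was named WUSCHEL itself or AINTEGUMENTA, but a hit listed under another protein name would have been missed. Leaf mesophyll markers summed to 9825 against 10671 RPKM, vascular markers to 592 against 410 RPKM and root markers to 21.5 against 19.3 RPKM. Of the 26 leaf mesophyll unigenes, 0 were past 2-fold in either direction, against 8.61% higher and 5.31% lower of all kept unigenes. Their counting intervals lay above 1 for 2 and below 1 for 11, against 19.8% and 14.4%. The vascular list summed higher in the mutant library, with 7508 mutant reads against 4875 wild-type reads, but its median log2 ratio was −0.08. Of its 14 unigenes, 7 were positive, and the log2 ratios ranged from −1.75 to 1.57. In each direction 1 was past 2-fold, against 8.61% higher and 5.31% lower of all kept unigenes. Counting intervals lay above 1 for 3 of the 14 and below 1 for 1, against 19.8% and 14.4%.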

How the data were processed

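Poly(A) RNA from buds was sequenced in 1 mutant and 1 wild-type library, grouped by the source names in the labels. Per the file headers, the authors deposited raw read counts, RPKM values, unigene length (other) and a Swiss-Prot E-value (a score of the best hit) for each unigene. The count columns summed to the totals in the headers. Deposited RPKM values recomputed from counts, lengths and totals matched within 1e-04 for 100% of unigenes. The assembler, aligner, counting tool and the handling of strand are not stated in the labels or headers, so it is not known how reads shared by near-identical family members were assigned.

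Unigenes with at least 1 RPKM in at least 1 library were kept (34255), and 2-fold was judged on log2((mutant RPKM + 1) / (wild-type RPKM + 1)). Folds of single unigenes came from counts and library totals, with Clopper-Pearson 95% intervals. Intervals of RPKM are exact Poisson intervals. They cover counting error only, and reads from PCR are not independent molecules. No test across trees was run with 1 library per group. The calculations were tested on simulated data and used Python 3.11.15, numpy 2.4.6, pandas 2.3.3 and scipy 1.17.1.

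The members, lists and rules were chosen with earlier results of these data known. Every AHP unigene is named, as are up to 2 unigenes per list with the largest absolute ratio and the 5 nearest in ratio to Unigene27895. Other named unigenes were chosen after their values were seen. Alternatives were pseudocounts of 0.1 and 5, no minimum, a minimum of 5 RPKM, centring, trimmed-mean scaling (30% and 5% trimmed), a 4-fold threshold and counting intervals. The comparison with the 200 nearest unigene numbers, and the sum without Unigene27895, were added after the data had been seen.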

Additional observations from a re-analysis of the deposited data

How the results depend on the processing

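The fold of Unigene27895 was 307 after centring on the median of all unigenes and 302 with trimmed-mean scaling, but 65.4 and 16.4 with pseudocounts of 1 and 5 RPKM, since its wild-type level is near 0. The count of AHP unigenes higher in the mutant library was 1 under each setting tried except the counting interval, which gave 2. Unigene27895, whose ratio chose the family, was counted in each. Without Unigene27895, a choice added after seeing the data, the fold of the summed AHP reads was 1.05 instead of 1.56. The median AHP ratio stayed between 0.14 and 0.21 in each setting. Over the other lists together, those of the clock and of ethylene receptors included, the 3 higher and 2 lower unigenes varied with the setting. They became 5 higher and 3 lower with a pseudocount of 0.1, and 1 higher and 0 lower with a pseudocount of 5. With a minimum of 5 RPKM there were 2 higher and 1 lower. At 4-fold there were 0 and 0, against 0.727% and 0.403% of all kept unigenes. By counting interval 15 of the 54 were higher and 16 lower, against 19.8% and 14.4% of all kept unigenes. For the pseudocounts and the minimum of 5 RPKM no share over all unigenes is given here. These lists hold several unigenes with few reads, and at counts such as 32 against 20 reads a fold of 1.59 was not detectable at this depth. No paired analysis was possible because each genotype has 1 library. No replicate could be left out for the same reason.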

Other observations

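Other unigenes also had many reads in 1 library and almost none in the other, and those below were picked after their values were seen. Where a fold can be given, its value was smaller than that of Unigene27895. With at least 100 reads in the mutant library and at most 3 in the wild-type library there were 4 unigenes. Besides Unigene27895 and Unigene23803 these were Unigene23558 (101 reads against 1) and Unigene24636 (130 against 3), both without a Swiss-Prot hit. Their folds of 101 (17.6 to 4011) and 43.2 (14.4 to 212) had intervals that overlapped the 87.4 to 2625 of Unigene27895. The order of these folds is therefore not fixed beyond counting error. The reverse pattern was found for 3 unigenes. Unigene28572, a match to APL, a factor needed for phloem identity in Arabidopsis, had 0 mutant reads against 115 wild-type reads. Unigene36515, a neutral ceramidase match, had 2 against 115, and Unigene28957, without a Swiss-Prot hit, had 2 against 112.

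Plant receptor names were absent from the cytokinin receptor list, but 11 unigenes were described as histidine kinases in another annotation column or by name. Phytochrome A matches (Unigene20394 and Unigene32683) and a pyruvate dehydrogenase kinase match (Unigene6182) were among them. The 11 had 9423 mutant reads against 9470 wild-type reads. Of these, 0 were past 2-fold in either direction, against 8.61% higher and 5.31% lower of all kept unigenes. Counting intervals lay above 1 for 2 of the 11 and below 1 for 3, against 19.8% and 14.4%. The long matches to a slime mould hybrid histidine kinase, Unigene9235 and Unigene7108, had 2029 against 2196 and 874 against 1017 reads. The most abundant of the 11, Unigene12460, a match to the sensor protein gacS, went the other way with 2629 against 2422 reads (1.08-fold, 1.02 to 1.14). Whether Unigene9235, Unigene7108 or Unigene12460 is a citrus cytokinin receptor is not known from these files. Of the ethylene receptors of this class, EIN4 had 564 against 464 reads (Unigene13020, 1.21-fold, 1.07 to 1.37), and ERS1 leaned the other way with 797 against 856 reads (Unigene4238, 0.927-fold, 0.841 to 1.02).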
